A study of Mus musculus with 8 samples.

Results

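Of the 52636 gene identifiers counted in cultured murine microglia, 10 were taken by name because their products sense or process nucleotides and adenosine outside the cell: P2rx1, P2rx4, P2rx7, P2ry2, P2ry6, P2ry14, Adora2a, Adora2b, Entpd1 and Nt5e. They were found by Ensembl identifier through the gene symbols of GENCODE vM21, and all 10 had a row in the count table. Microglia, the resident macrophages of the brain, had been shaken off mixed glial cultures made from neonatal brains of wild-type C57BL/6 mice (C57BL/6N pups in the study's methods), and were kept in DMEM with 10% serum and 10 ng/ml CSF-1, the growth factor that sustains these cells in culture. RNA sequencing compared 4 libraries of cells exposed for 24 h to 5 µg/ml LPS, a lipopolysaccharide of bacterial cell walls to which microglia react, with 4 libraries of cells exposed to vehicle. Genotype, medium and CSF-1 were the same in both groups. The labels call the 4 libraries of a group biological replicates, without saying whether they came from separate animals, litters or cultures, and the p-values measure the spread between these libraries.

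The libraries held 20071921 to 30604447 counts each. Levels are given as CPM, counts scaled to a common library size with TMM factors, and changes as the log2 fold change of LPS against vehicle from edgeR's quasi-likelihood test, with Benjamini-Hochberg adjusted p-values over the 13847 genes that passed a filter on low counts. Of 11 microglial marker genes, all were above the floor of 3 counts per library, and their summed level was 8235 to 10419 CPM with vehicle and 3301 to 3736 CPM with LPS. In the LPS libraries 8 of the 11 were called lower and 1 higher, where 33.8% and 30.3% of all tested genes were. The label of the cells thus rests on markers that moved with the treatment. Except for neutrophil markers, sums of markers of other cell types were at most 254 CPM in any library. This maximum was in the endothelial list, with 31.1 to 73.5 CPM in vehicle and 163 to 254 CPM in LPS. Of its 6 genes, 3 (Cldn5, Tek and Esam) were at the floor in every library, with Cldn5 at 0 in all 8. The 3 tested genes of that list, Pecam1, Cdh5 and Flt1, were all called higher with LPS, as were 30.3% of all tested genes. In vehicle the oligodendrocyte list had the highest of these sums, at 149.7 to 205 CPM, and it had 188 to 237 CPM in LPS. Its genes Cnp and Mbp were at 88.6 and 84.0 CPM on average in vehicle, and at 195 and 15.3 CPM in LPS. Neutrophil markers were at the floor for 4 of 5 genes in every library, and the remaining one, S100a8, reached 571.8 to 1173 CPM in LPS libraries. LPS replicate 3 stood apart in several of the purinergic genes. It also had the lowest summed level of oligodendrocyte precursor markers (1.87 CPM against 14.98 to 20.8 in the other LPS libraries) and the highest of fibroblast and meningeal markers (21.4 CPM against 5.30 to 7.52). The latter sum was mostly Dcn, at 19.4 CPM in LPS replicate 3. Lum was at 1.40, Pdgfrb at 0.42, Col1a1 at 0.093, Col3a1 at 0.047 and Col1a2 at 0 CPM in that library. Vehicle replicate 3 likewise had the lowest sum of precursor markers of its group (18.3 CPM against 51.8 to 82.1). It also had the highest sum of fibroblast and meningeal markers among the vehicle libraries (4.31 CPM against 0.497 to 2.70). The part of other cells in the results below was not tested. In bulk RNA, fewer cells of a type and less RNA per cell cannot be told apart.

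Cells release ATP, UDP and related nucleotides through channels and vesicles, and when they are damaged. P2X receptors are ion channels opened by ATP, P2Y receptors are G protein-coupled receptors for different nucleotides, and adenosine receptors are G protein-coupled receptors for the nucleoside that remains once all phosphates are removed. Entpd1 (CD39) cuts ATP and ADP to AMP, and Nt5e (CD73) turns AMP into adenosine. This pair of enzymes thus helps to set how long a nucleotide signal lasts and how much adenosine follows it. In microglia these receptors are known for guiding processes towards injury, for uptake of debris and for release of cytokines.

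After LPS the adenosine receptor genes Adora2a and Adora2b rose most, 61.4-fold and 12.1-fold. Among nucleotide receptors, P2ry2 rose 8.73-fold, P2rx4 2.20-fold and P2ry6 1.83-fold. The ectonucleotidase Entpd1 was 6.49-fold lower. P2rx7 and P2ry14 did not pass the test without a replicate block, and P2rx1 and Nt5e had too few counts to enter it. Thus 8 of the 10 genes passed the filter on low counts, 5 were called higher and 1 lower at an adjusted p under 0.05, where 64.1% of all tested genes were called, 30.3% higher and 33.8% lower. With same-numbered vehicle and LPS libraries as a replicate block, 6 were called higher and 2 lower (edgeR, same threshold), against 29.7% and 35.6% of all tested genes (65.3% in either direction).

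How the libraries were scaled set the size of all these changes. With library totals in place of TMM factors, an alternative chosen after seeing the data, the median log2 fold change of all tested genes was −0.79 rather than −0.11, and 4 of the purinergic genes were called higher and 2 lower, where 14.4% and 61.1% of all tested genes were. No direction of a tested purinergic gene turned under either scaling. Ratios between genes of the same library, given below, do not depend on it.

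**Figure D1:**
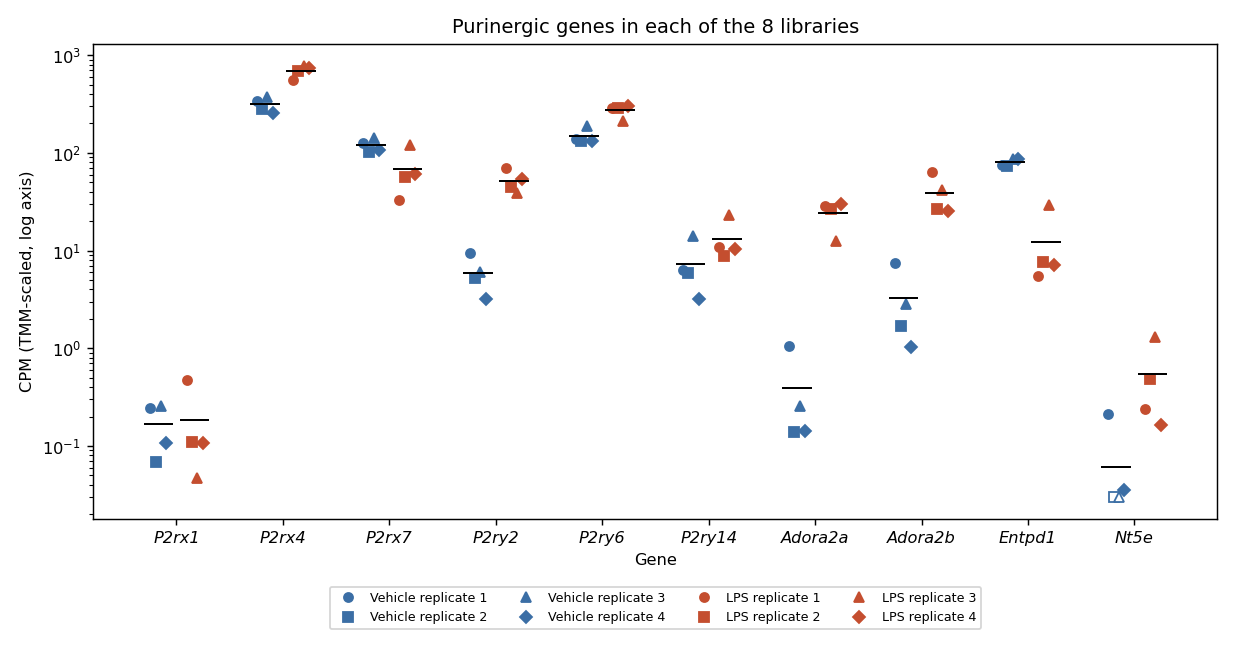
Level of each of the 10 purinergic genes in each library, in TMM-scaled CPM on a log axis, with vehicle in blue, LPS in red, symbols for replicates 1 to 4 and a line at the mean of 4 libraries. Open symbols at the bottom are libraries with 0 counts, and the groups lie apart for P2rx4, P2ry2, P2ry6, Adora2a, Adora2b and Entpd1, while they overlap for P2rx1, P2rx7, P2ry14 and Nt5e.

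In the mouse genome (GRCm38) several of these genes lie side by side. P2rx7 (chr5:122643911-122691432, plus strand) ends 16111 bases before P2rx4 (chr5:122707544-122729738, plus strand). P2ry6 (chr7:100937630-100974649, minus strand) and P2ry2 (chr7:100996568-101012866, minus strand) are separated by 21918 bases. Of the first pair only P2rx4 rose, whereas both genes of the second pair rose. The other genes lie on separate chromosomes or far apart: P2rx1 at chr11:72999103-73015200 and Adora2b at chr11:62248984-62266453, both on the plus strand, Adora2a at chr10:75316877-75334784, Entpd1 at chr19:40612366-40741602 and Nt5e at chr9:88327197-88372092, all on the plus strand, and P2ry14 at chr3:59113855-59153618 on the minus strand, inside the span of Med12l but without shared exonic bases. All are protein-coding, and the counts are those of reads in their exons. No member shared exonic bases with a gene on the other strand, and P2rx7 shared 1.99% of them with the microRNA gene Mir8115.

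RefSeq promoter windows of GRCm38.p6, from 250 bases before to 50 bases after a start site, were found for 8 of the 10 genes, 14 windows in all, and not for P2ry6 and Adora2a. Motifs were searched on both strands. AP-1 (TGANTCA, which reads the same on both strands) was found in 1 window of P2rx7 and in 2 of P2ry14, the hypoxia response element (ACGTGC) in both overlapping windows of P2ry2, PU.1 (GAGGAAGT) in the other window of P2rx7 and the TATA box (TATAAA) in 1 window of P2ry14. Of 32851 windows of all genes, AP-1 was in 7.81%, the hypoxia response element in 5.91%, PU.1 in 3.20% and the TATA box in 13.6%. NF-kB (GGGANTTTC, 1.11% of all windows), the interferon-stimulated response element (GAAANNGAA, 8.56%) and CRE (TGACGTCA, 1.79%) had no match in the 14 windows, which says only that these letters are not there. The 250 bases before the start site are shown for the neighbours P2rx7 and P2rx4, for P2ry14, which like P2rx7 holds an AP-1 match, and for the receptor and the enzyme with the largest changes among genes that have a window. Capitals mark the motif matches.
P2rx7, chr5:122643677-122643926, plus strand: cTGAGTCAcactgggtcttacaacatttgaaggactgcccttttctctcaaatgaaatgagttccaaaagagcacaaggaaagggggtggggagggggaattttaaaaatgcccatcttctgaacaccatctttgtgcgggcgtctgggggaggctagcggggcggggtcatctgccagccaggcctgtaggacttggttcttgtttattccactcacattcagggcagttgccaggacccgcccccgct
P2rx4, chr5:122707294-122707543, plus strand: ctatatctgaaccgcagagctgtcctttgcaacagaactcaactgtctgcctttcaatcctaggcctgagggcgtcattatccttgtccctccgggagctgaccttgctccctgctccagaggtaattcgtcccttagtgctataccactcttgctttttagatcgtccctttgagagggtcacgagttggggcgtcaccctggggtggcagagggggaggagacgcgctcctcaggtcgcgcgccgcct
P2ry14, chr3:59153493-59153742, minus strand: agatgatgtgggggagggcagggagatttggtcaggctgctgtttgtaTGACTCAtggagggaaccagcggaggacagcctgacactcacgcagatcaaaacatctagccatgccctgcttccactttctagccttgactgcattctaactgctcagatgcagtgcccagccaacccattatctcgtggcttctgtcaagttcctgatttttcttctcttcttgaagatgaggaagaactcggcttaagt
Adora2b, chr11:62248734-62248983, plus strand: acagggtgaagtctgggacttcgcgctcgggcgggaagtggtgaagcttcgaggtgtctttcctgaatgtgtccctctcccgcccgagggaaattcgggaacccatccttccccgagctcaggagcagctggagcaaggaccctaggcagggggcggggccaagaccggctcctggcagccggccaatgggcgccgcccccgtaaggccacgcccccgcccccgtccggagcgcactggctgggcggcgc
Entpd1, chr19:40612116-40612365, plus strand: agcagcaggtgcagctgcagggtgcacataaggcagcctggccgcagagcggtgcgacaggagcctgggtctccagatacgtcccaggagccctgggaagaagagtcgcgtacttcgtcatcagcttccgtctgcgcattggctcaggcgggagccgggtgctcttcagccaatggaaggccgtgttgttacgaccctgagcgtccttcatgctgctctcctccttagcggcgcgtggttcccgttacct
For P2ry2 the match lies within 30 bases at the end of its first window: P2ry2, chr7:101012004-101012033, minus strand: accgcggcgcttccagGCACGTgggaccct
Bases before the start site of Adora2b were 69.6% G or C with 22 CG pairs, and those of Entpd1 62.4% with 18. The stretch of P2ry14 held 4 CG pairs at 50.0% G or C, and that of P2rx7 6 at 53.6%. The motif matches describe letters and are no evidence of binding.

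The P2X channels changed their balance. P2rx4 encodes a channel with high ATP sensitivity that sits largely in lysosomes of microglia. It was at 343, 279, 374 and 255 CPM in vehicle replicates 1 to 4, and at 550.3, 682, 782 and 740.2 CPM in LPS replicates 1 to 4. All LPS libraries lay above all vehicle libraries, as they did for 28.7% of all tested genes. The groups did not overlap for 6 of the 8 tested purinergic genes, and for 60.2% of all tested genes. The log2 fold change was 1.14 (SE 0.17, 95% interval 0.77 to 1.51, adjusted p = 2.28e-04 in edgeR's quasi-likelihood test, n = 4 per group). On library totals it was 0.46 (edgeR adjusted p = 0.0113).

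P2rx7 encodes the channel that needs high ATP and is best known for starting inflammasome activation. It was at 125, 103, 142 and 107 CPM in vehicle and at 32.6, 57.2, 121 and 61.3 CPM in LPS replicates 1 to 4. LPS replicates 1, 2 and 4 were below every vehicle library, and LPS replicate 3 lay within the vehicle range. The log2 fold change was −0.81 (SE 0.33, 95% interval −1.55 to −0.07), which missed the threshold by little (edgeR adjusted p = 0.0533). P2rx7 was nevertheless lower after LPS in each of the 4 same-numbered pairs, by log2 ratios of −1.94, −0.85, −0.24 and −0.80, and with the replicate block the change was −0.95 (SE 0.25, edgeR adjusted p = 0.0103). Without LPS replicate 3 it was −1.24 (edgeR adjusted p = 0.00132), and on library totals −1.53 (edgeR adjusted p = 9.76e-04).

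The ratio of P2rx4 to P2rx7, per kilobase of exon and within a library, was 2.33, 2.30, 2.23 and 2.02 in vehicle and 14.3, 10.1, 5.50 and 10.3 in LPS replicates 1 to 4. It was thus higher in every LPS library than in any vehicle library. Counted over all 7 P2X genes, P2rx4 took 68.7% ± 1.37 (SD, n = 4) of the summed CPM per kilobase in vehicle and 90.0% ± 3.74 in LPS, and P2rx7 took 31.01% ± 1.41 and 9.93% ± 3.80. The summed level of the class was 64.7 ± 10.8 CPM per kilobase in vehicle and 110 ± 19.9 in LPS. P2rx1, a channel of platelets and smooth muscle that desensitises quickly, had 7, 2, 8 and 3 counts in vehicle and 8, 2, 1 and 2 in LPS libraries. Its mean level differed by 0.017 CPM (two-sided exact permutation test over the 70 divisions of the libraries, p = 0.857, n = 4 per group). The other 4 P2X genes, P2rx2, P2rx3, P2rx5 and P2rx6, were all below the filter.

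**Figure D2:**
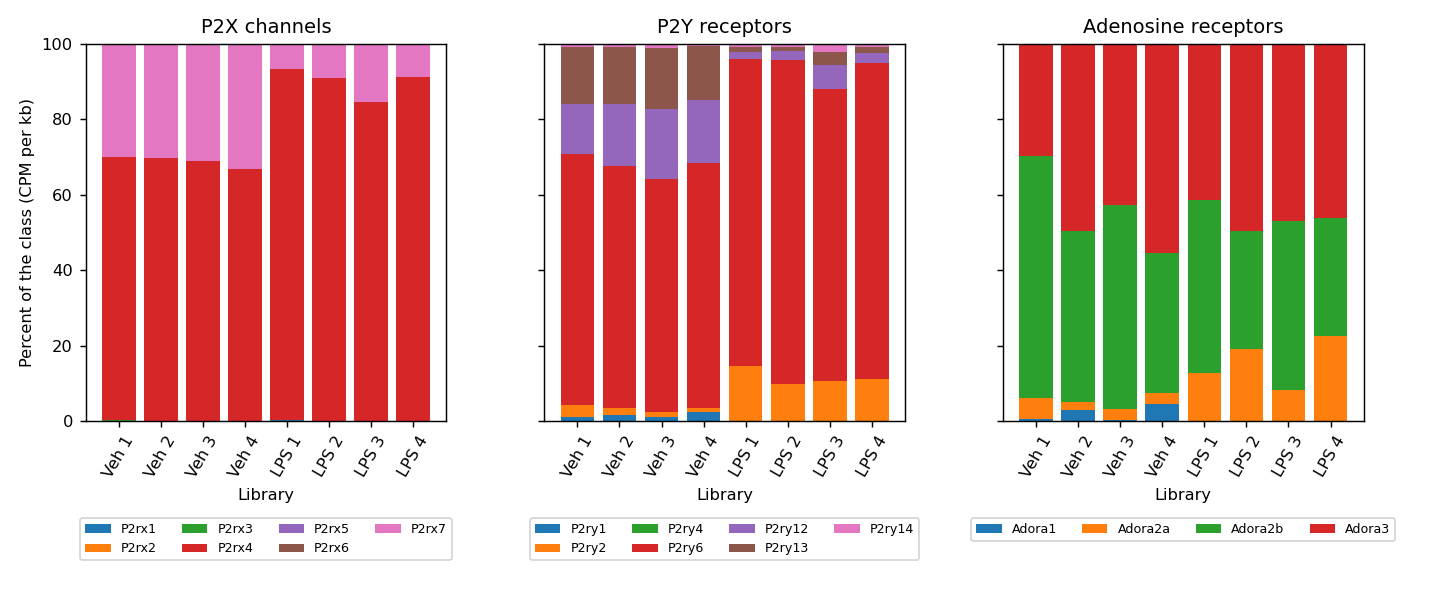
Share of each gene in the summed CPM per kilobase of its receptor class, in percent, for the P2X channels, P2Y receptors and adenosine receptors in each of the 8 libraries (stacked bars, vehicle on the left of each panel). P2rx4 grows from 68.7% to 90.0% of its class on average, P2ry6 from 64.3% to 82.2% and Adora2a from 3.43% to 15.5%.

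Of the P2Y receptors among the 10 genes, P2ry2, a receptor for ATP and UTP, had the largest rise. Its level was 9.35, 5.19, 6.06 and 3.16 CPM in vehicle replicates 1 to 4 and 69.6, 44.9, 39.1 and 54.2 CPM in LPS replicates 1 to 4. The lowest LPS library, replicate 3, was still more than any vehicle library. Its log2 fold change was 3.13 (SE 0.32, 95% interval 2.42 to 3.83, edgeR adjusted p = 2.27e-05), and 2.47 on library totals. Replicate 1 was the highest library of both groups.

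P2ry6, the UDP receptor known for triggering phagocytosis in microglia, was at 138, 133, 190.4 and 131 CPM in vehicle and at 285, 291, 209.5 and 301 CPM in LPS. The groups did not overlap, but replicate 3 nearly closed the gap, being the highest of the vehicle and the lowest of the LPS libraries. The log2 ratio within same-numbered pairs was 1.05, 1.14 and 1.20 for replicates 1, 2 and 4, and 0.14 for replicate 3. The log2 fold change was 0.88 (SE 0.16, 95% interval 0.51 to 1.25, edgeR adjusted p = 0.00114). On library totals it was 0.22 and the call was lost (edgeR adjusted p = 0.284), so its rise holds relative to the other genes under TMM scaling.

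P2ry14, the receptor for UDP-sugars, was at 6.30, 5.85, 14.02 and 3.16 CPM in vehicle and at 10.8, 8.77, 23.1 and 10.4 CPM in LPS. The groups overlapped, with replicate 3 the highest library of both. Each LPS library was above the vehicle library of its own number, by log2 ratios of 0.78, 0.58, 0.72 and 1.72. Without the block the log2 fold change was 0.86 (SE 0.45, 95% interval −0.16 to 1.87, edgeR adjusted p = 0.122). With the replicate block it was 0.93 (SE 0.21, edgeR adjusted p = 0.00533), and without vehicle replicate 3 it was 1.43 (edgeR adjusted p = 0.00964). On library totals without the block it was 0.16 (edgeR adjusted p = 0.727).

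**Figure D3:**
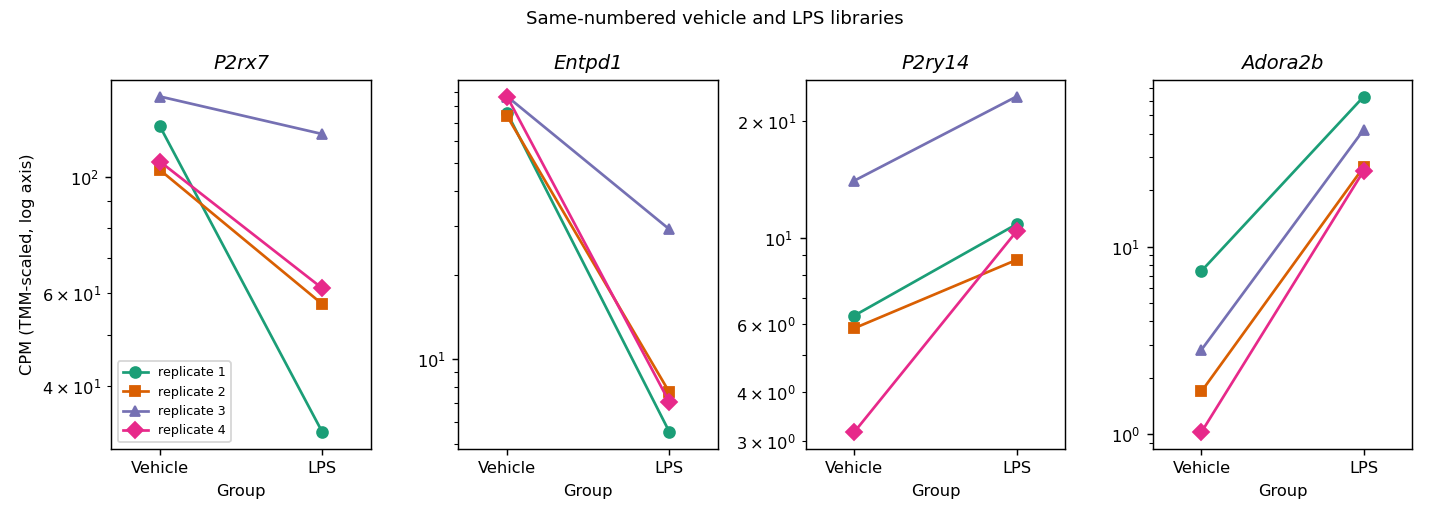
Levels in TMM-scaled CPM (log axes, which differ between panels) of P2rx7, Entpd1, P2ry14 and Adora2b, with lines that join the vehicle and LPS libraries of the same replicate number. All 4 lines fall for P2rx7 and Entpd1 and rise for P2ry14 and Adora2b, and the line of replicate 3 falls least for P2rx7 (log2 ratio −0.24) and Entpd1 (log2 ratio −1.57).

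Of the 4 other P2Y genes in a list of the family, 3 were tested and all 3 were lower, as were 33.8% of all tested genes (all 3 also on library totals, as were 61.1%), while P2ry4 was below the filter. P2ry12, the ADP receptor that marks resting microglia and steers their processes, was 33.8 ± 11.6 CPM in vehicle and 8.96 ± 4.28 CPM in LPS (SD, n = 4), a log2 fold change of −1.91 (SE 0.33, edgeR adjusted p = 7.10e-04). P2ry13, a further ADP receptor, changed by −2.62 (SE 0.27, edgeR adjusted p = 2.71e-05), and P2ry1, also an ADP receptor, by −4.32 (SE 0.41, edgeR adjusted p = 1.55e-05). Of P2ry1 transcripts 22.0% of all 50-base windows also occur in the overlapping gene Gm37035, so its counts are less certain. The ADP receptors thus fell, while P2ry2 and, under TMM scaling, P2ry6, which respond to UTP and UDP, rose. In shares of the 7 P2Y genes per kilobase, P2ry6 went from 64.3% ± 1.98 to 82.2% ± 3.66, P2ry2 from 1.94% ± 0.96 to 11.5% ± 2.14, P2ry12 from 16.3% ± 2.10 to 3.27% ± 2.09 and P2ry13 from 15.2% ± 0.639 to 1.82% ± 0.944. P2ry14 was 0.781% ± 0.318 in vehicle and 1.12% ± 0.743 in LPS, with overlapping groups. The ratio of P2ry6 to P2ry2 within a library was 20.03 to 56.5 in vehicle and 5.57 to 8.83 in LPS.

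Both adenosine receptors among the 10 genes were low in vehicle and rose after LPS. Adora2a, a receptor that raises cAMP and dampens inflammatory signalling in macrophages, had 30, 4, 8 and 4 counts in vehicle replicates 1 to 4 (1.05, 0.138, 0.254 and 0.142 CPM). In LPS replicates 1 to 4 it had 479, 491, 270 and 556 counts (28.7, 26.7, 12.6 and 30.1 CPM). Every LPS library was above every vehicle library, with LPS replicate 3 the lowest and vehicle replicate 1 the highest of its group. The log2 fold change was 5.94 (SE 0.57, 95% interval 4.65 to 7.23, edgeR adjusted p = 1.73e-05), which placed Adora2a at rank 164 from the top of the 13847 tested genes. Without vehicle replicate 1 it was 7.09, and on library totals 5.30.

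Adora2b, the low-affinity receptor that answers when adenosine is plentiful, was at 7.42, 1.70, 2.82 and 1.03 CPM in vehicle and at 63.0, 26.6, 42.0 and 25.4 CPM in LPS. The groups lay far apart, and in both of them replicate 1 was highest and replicate 4 lowest. The change was 3.60 on the log2 scale (SE 0.58, 95% interval 2.30 to 4.89, edgeR adjusted p = 4.19e-04). It was 4.43 without vehicle replicate 1 and 2.93 on library totals. Within pairs the log2 ratios were 3.09, 3.97, 3.89 and 4.62.

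Adora3, not one of the 10 genes and an inhibitory adenosine receptor, rose as well, from 4.56 ± 1.65 to 91.0 ± 17.1 CPM (log2 fold change 4.32, SE 0.26, edgeR adjusted p = 9.12e-07). Of its 50-base windows 19.8% also occur in Tmigd3, a gene of the same locus. Adora1 was below the filter. The summed level of all 4 adenosine receptors was 3.15 ± 2.14 CPM per kilobase in vehicle and 53.7 ± 14.1 in LPS. Adora2a took 3.43% ± 1.42 of it in vehicle and 15.5% ± 6.41 in LPS without overlap of the groups. Shares of Adora2b (50.2% ± 11.8 and 38.4% ± 8.12) and Adora3 (44.3% ± 11.1 and 46.0% ± 3.39) overlapped. The ratio of Adora2b to Adora2a per kilobase was 11.7 to 20.3 with vehicle and 1.40 to 5.53 with LPS.

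Of the 2 enzymes among the 10 genes, Entpd1 fell and Nt5e had few counts. Entpd1 was at 75.7, 73.7, 86.7 and 86.5 CPM in vehicle, a coefficient of variation of 8.56%, and at 5.51, 7.62, 29.1 and 7.03 CPM in LPS replicates 1 to 4. All LPS libraries lay below all vehicle libraries, as they did for 31.5% of all tested genes, and LPS replicate 3 was well above the other 3. This was a log2 fold change of −2.70 (SE 0.48, 95% interval −3.78 to −1.62, edgeR adjusted p = 8.37e-04). Without LPS replicate 3 it was −3.57, and on library totals −3.45. Within pairs the log2 ratios were −3.78, −3.27, −1.57 and −3.62.

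Nt5e, an enzyme that would form adenosine from AMP, had 6, 0, 0 and 1 counts in vehicle and 4, 9, 28 and 3 counts in LPS libraries. Of the 44 counts in LPS, 28 came from replicate 3. That library had the highest sum of fibroblast and meningeal markers, most of it from Dcn. Vehicle replicate 3, with the highest such sum among the vehicle libraries (4.31 CPM), had 0 counts of Nt5e. The part of such cells in the Nt5e counts was not tested. A count of 0 allows up to 3 counts, or 0.104 and 0.0952 CPM in vehicle replicates 2 and 3, by counting error alone. The mean level was 0.0614 CPM in vehicle and 0.549 CPM in LPS, a difference of 0.488 CPM (two-sided exact permutation test, p = 0.0571, with 0.0286 the smallest p that 4 against 4 libraries allow). With no filter on low counts Nt5e was called higher by edgeR (adjusted p = 0.0177) and by DESeq2 (adjusted p = 0.0107), and its fold depends on how 0 counts are treated.

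**Figure D4:**
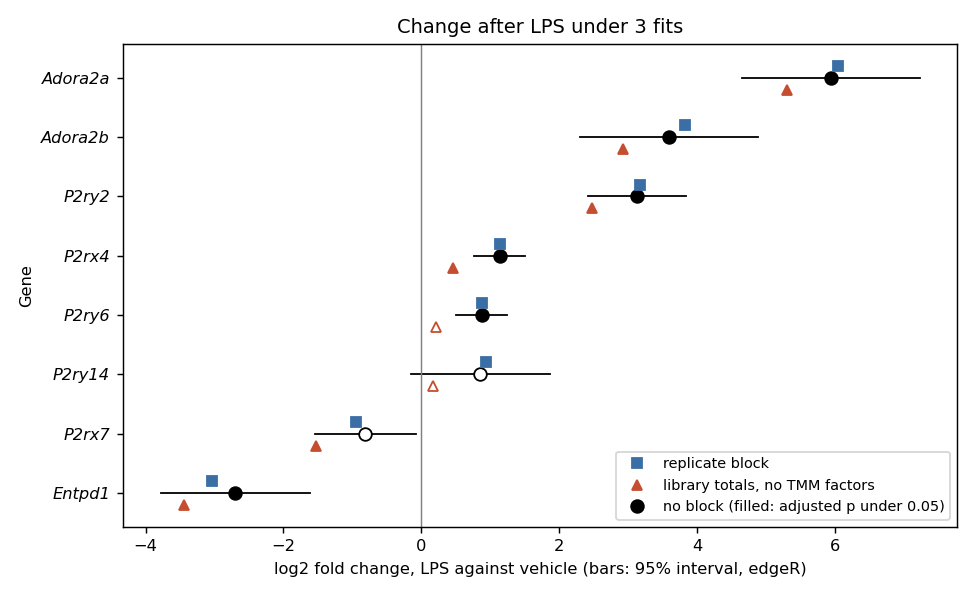
Log2 fold change of LPS against vehicle for the 8 purinergic genes that passed the filter, from edgeR without a block (circles, with bars for the 95% interval), with the replicate block (squares) and on library totals (triangles); filled symbols have an adjusted p under 0.05. Adora2a is highest at 5.94 and Entpd1 lowest at −2.70, and only P2rx7, P2ry14 and P2ry6 change between filled and open symbols.

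Levels of different genes were compared per kilobase of annotated exon. In vehicle P2ry6 (51.3 ± 9.85 CPM per kilobase, SD, n = 4) and P2rx4 (44.5 ± 7.85) led and overlapped, and with the length of the longest transcript in place of all exons P2rx4 came first. P2rx7 (20.002 ± 3.03) and Entpd1 (14.5 ± 1.24) followed, each apart from its neighbours. Adora2b (1.76 ± 1.56), P2ry2 (1.51 ± 0.656) and P2ry14 (0.663 ± 0.422) each overlapped the next gene in the order, as did Adora2a (0.129 ± 0.143). P2rx1 (0.0642 ± 0.036) and Nt5e (0.00714 ± 0.0117) came last.

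In LPS P2rx4 (98.0 ± 14.4 CPM per kilobase) and P2ry6 (94.1 ± 14.5) again led and overlapped. Behind them Adora2b (21.3 ± 9.52), P2ry2 (13.2 ± 3.39), P2rx7 (11.4 ± 6.27), Adora2a (8.01 ± 2.63) and Entpd1 (2.21 ± 2.01) each overlapped the next. P2ry14 (1.20 ± 0.597) was apart from P2rx1 (0.0707 ± 0.0753) and Nt5e (0.0639 ± 0.0608). Adora2b thus went from the fifth place (the sixth with the longest transcript) to the third, whereas Entpd1 went from the fourth to the seventh with either length.

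The wider pathway was read from lists of 76 further genes, of which 75 had a row and 52 were tested, with 17 called higher, 26 lower and 9 not called, where 30.3% of all tested genes were called higher and 33.8% lower. The 23 others were below the filter. Of 9 other enzymes that split extracellular nucleotides or NAD, 4 were tested, 3 of them higher (Bst1, Cd38 and Acpp) and 1 lower. Their median log2 fold change was 4.24, where that of all tested genes was −0.11. Acpp was at 1.04 CPM in vehicle and 22.7 CPM in LPS on average, with LPS libraries from 3.08 to 54.6 CPM. Bst1, which like CD38 consumes NAD at the cell surface, rose from 7.63 ± 5.59 to 501 ± 105 CPM (log2 fold change 6.03, SE 0.59, edgeR adjusted p = 1.83e-05). Enpp1, which cuts ATP to AMP and pyrophosphate, fell from 37.5 ± 4.50 to 3.44 ± 1.23 CPM (log2 fold change −3.45, SE 0.24, edgeR adjusted p = 2.33e-06). Entpd1 and Enpp1, both of which remove ATP, thus fell together, and their ratio per kilobase was 3.41 to 4.47 in vehicle and 2.72 to 3.84 in LPS replicates 1, 2 and 4, but 24.4 in LPS replicate 3. The other members of the CD39 family at the surface, Entpd2, Entpd3 and Entpd8, were below the filter.

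Of the 5 intracellular members of that family, 3 were tested, with a median of −0.51, and 2 were lower, as were 33.8% of all tested genes. Entpd6 changed by −1.09 (SE 0.19, edgeR adjusted p = 6.27e-04). Entpd4 and Entpd4b had 0 counts in every library, and as near-identical copies they are uncertain, because only uniquely aligned reads were counted.

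Genes for adenosine removal and nucleoside transport had 10 rows, of which 8 were tested, with a median of −0.81. Of these 3 were higher, 4 lower and 1 not called, where 30.3% of all tested genes were called higher and 33.8% lower. Slc28a2, a transporter that carries purine nucleosides into the cell along with sodium, rose from 1.03 ± 0.749 to 1205 ± 482 CPM (log2 fold change 10.17, SE 0.59, edgeR adjusted p = 8.00e-07). Its counts are uncertain, since 35.4% of its 50-base windows also occur in the related gene Gm14085, and without vehicle replicate 3 the change was 10.83. The equilibrative transporter Slc29a1 fell from 37.5 ± 2.34 to 7.95 ± 1.53 CPM (log2 fold change −2.24, SE 0.15, edgeR adjusted p = 1.97e-06). Ada, which deaminates adenosine, changed by −1.95 (SE 0.30, edgeR adjusted p = 3.58e-04). Adk, which phosphorylates adenosine back to AMP, was 18.2 ± 3.18 CPM in vehicle and 19.1 ± 6.95 CPM in LPS and was not called (log2 fold change 0.07, SE 0.25, edgeR adjusted p = 0.810, and −0.59 on library totals).

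Of 13 genes for channels and carriers that release nucleotides, 9 were tested, with a median of 0.32. Of these 4 were higher, 3 lower and 2 not called, where 30.3% of all tested genes were called higher and 33.8% lower. Gja1, the gap junction and hemichannel protein connexin of astrocytes and other cells, rose from 0.873 ± 0.221 to 48.6 ± 33.2 CPM (log2 fold change 5.79, SE 0.49, edgeR adjusted p = 7.07e-06). Without LPS replicate 1, its highest library, the change was 5.20. It was also one of the 8 astrocyte markers, whose summed level was 20.01 to 46.9 CPM in vehicle and 41.0 to 123.5 CPM in LPS. Without Gja1 the sum of the other 7 was 19.3 to 45.8 CPM in vehicle and 10.2 to 25.3 CPM in LPS. Of these, 6 were tested and 3 were called lower by edgeR, as were 33.8% of all tested genes. The 3 were Gfap (5.96 CPM in vehicle and 1.14 CPM in LPS on average), Aqp4 and Aldh1l1, while Slc1a2, Slc1a3 and Aldoc were not called. The part of astrocytes in the rise of Gja1 was not tested. Slc17a9, the carrier that loads ATP into vesicles, changed by −2.81 (SE 0.44, edgeR adjusted p = 3.65e-04). Panx1, a channel that releases ATP, changed by −0.75 (SE 0.26, edgeR adjusted p = 0.0280), a call that was lost in 5 of the 8 fits that left out 1 library.

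Of 28 genes for G proteins, phospholipases, adenylyl cyclases and phosphodiesterases downstream of these receptors, 24 were tested, with a median of −1.29. Of these 6 were higher, 13 lower and 5 not called, where 30.3% of all tested genes were called higher and 33.8% lower. With the replicate block 5 were higher and 15 lower, where 29.7% and 35.6% of all tested genes were. On library totals 3 were higher and 17 lower, where 14.4% and 61.1% of all tested genes were. Pde4b, which degrades cAMP, rose from 34.9 ± 9.94 to 473 ± 5.84 CPM (log2 fold change 3.76, SE 0.20, edgeR adjusted p = 5.55e-07). Adcy3, which makes cAMP, fell from 50.6 ± 7.38 to 2.63 ± 0.439 CPM (log2 fold change −4.26, SE 0.17, edgeR adjusted p = 1.16e-07), although 18.6% of its 50-base windows also occur in the neighbouring gene Cenpo.

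**Figure D5:**
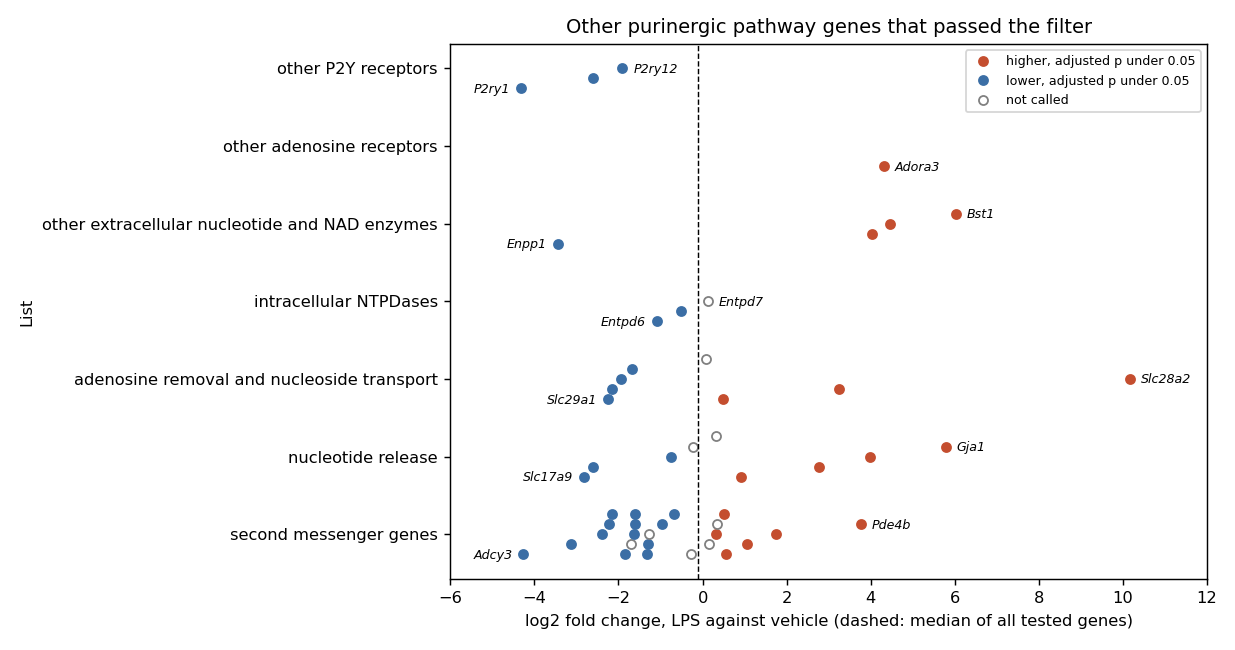
Log2 fold change of LPS against vehicle for the 52 tested genes of the pathway lists, 1 row of points per list, with red for higher, blue for lower, open symbols for genes not called and a dashed line at −0.11, the median of all tested genes. All 3 tested P2Y genes outside the 10 lie on the left, and Slc28a2 lies farthest to the right at 10.17.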

How the data were processed

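RNA of 8 libraries of primary microglia, 4 with LPS and 4 with vehicle, had been sequenced as single-end 50 bp reads. The labels and the study's methods name different library kits and sequencers. The authors aligned the reads to GRCm38 with GSNAP, counted uniquely aligned reads per gene with HTSeqGenie (4.30 in the submitters' processing notes) and deposited raw counts. The annotation release and whether strand was used are not given in the sources used here. All columns matched a sample, 52489 of 52636 identifiers had a GENCODE vM21 symbol, and no libraries were identical.

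Counts were tested with edgeR 4.0.16 in R 4.3.3 (TMM, filterByExpr at its defaults, a count of 10 in enough libraries and 15 in all, quasi-likelihood test, two-sided, Benjamini-Hochberg over all 13847 tested genes, threshold 0.05). Simulated counts, in which the altered genes were known, served to test edgeR and DESeq2. Few genes were altered there, as many up as down, whereas 64.1% of all tested genes were called in the data. The simulation could therefore not test the scaling between the groups, and its outcome is not given here. The SE is the log2 fold change divided by the root of F, with 95% intervals from its t distribution. Means and SDs are over 4 libraries. Single values below the filter were compared by exact permutation with scipy 1.17.1, and tables and figures were made with Python 3.11.15, pandas 2.3.3, numpy 2.4.6 and matplotlib 3.10.9. A count of 0 allows up to 3 counts. Such limits cover counting error only.

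Deviations of same-numbered vehicle and LPS libraries from their group means correlated across 8382 genes (r = 0.361, 0.183, 0.183 and 0.130 in the order of the numbers), in all 4 cases over the limit of 0.1, so the numbers were treated as pairs and the block is given where it changed a call. The labels give no batch and do not say whether libraries of the same number share a culture. Correlations between libraries of different numbers are not given here, so the pairing remains an assumption.

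The members, pathway lists, markers and motifs were chosen with earlier results of these data known. Named beside the 10 genes are, for each list, the largest rise and fall among called genes whose mean log2 CPM was 0 or more, and P2ry12, P2ry13, Adora3, Ada, Adk and Panx1. Acpp was named outside this rule. Likeness of other genes to a member is the root mean square difference of log2 CPM after taking off each gene's mean, among genes whose mean log2 CPM was 3 or more. Alternatives were DESeq2 1.42.0, other filters (none, or 10 counts in every library) and scalings (upper quartile, DESeq2 size factors), the replicate block, an adjusted p under 0.01, an absolute log2 fold change of at least 1 and leaving out each library. Library totals, and both replicates 3 left out, were added after seeing the data.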

Additional observations from a re-analysis of the deposited data

Results flagged for a closer look

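In 4 of the 16 groups of 4 libraries examined (8 tested purinergic genes in 2 groups), 1 library lay far from the others by Dixon's criterion at the 95% level. Chance gives this in about 1 in 20 groups only where values are normally distributed and groups are independent. The criterion was applied to CPM without a log scale, and genes of the same library are not independent. The 4 groups can therefore not be set against that rate. Entpd1 stood at 29.1 CPM in LPS replicate 3, with the nearest LPS library at 7.62 CPM. P2ry14 stood at 23.1 CPM in the same library, with the nearest at 10.8 CPM. P2ry6 was at 190.4 CPM in vehicle replicate 3, with the nearest vehicle library at 138 CPM. Adora2a was at 1.05 CPM in vehicle replicate 1, with the nearest at 0.254 CPM. Replicate 3 thus holds 3 of the 4 values, and its LPS library had the largest mean absolute deviation from the group mean over the 8 tested genes (0.688 on the log2 scale, against 0.234 to 0.479 in the other LPS libraries). Its vehicle library did not stand out in this measure (0.324, against 0.592, 0.289 and 0.584 in vehicle replicates 1, 2 and 4).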

How the results depend on the processing

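Of the 8 tested genes, P2rx4, P2ry2, Adora2a, Adora2b and Entpd1 kept their direction and their call under every alternative that gave a value, and Adora2a could not be fitted with at least 10 counts in every library. P2rx7 passed the threshold under DESeq2 (−0.76), with no filter on low counts (−0.84), with at least 10 counts in every library (−0.88), with upper quartile normalization (−0.99), with the replicate block (−0.95), on library totals (−1.53) and without replicate 3 of both groups (−1.07). Leaving out 1 library gave −1.24 to −0.57. Each of these 7 alternatives raised the number of purinergic genes called lower from 1 to 2, through P2rx7 alone. Of all tested genes 33.8% were called lower without a block, 35.6% with the block and 61.1% on library totals. Leaving out 1 library gave 1 to 2 purinergic genes, where 4003 to 5015 of all tested genes were called lower. Shares for the remaining alternatives are not given here, so the count is read no further. P2ry14 passed with the replicate block (0.93) and without replicate 3 of both groups (1.05), and gave 0.45 to 1.43 with 1 library left out. The block changed no other call of the 8 genes. P2ry6 lost its call on library totals (0.22) and where an absolute log2 fold change of at least 1 was required (0.88). That requirement left 2224 genes higher and 2998 lower of all tested, and library totals gave 1988 higher and 8457 lower. Adk, not called in any fit, changed sign with upper quartile normalization (−0.076), on library totals (−0.59) and without LPS replicate 2 or 4 (−0.14 to 0.23 with 1 library left out). The causes were not tested. With 4 libraries per group and 20071921 to 30604447 counts each, a change of P2rx1 was not detectable at this depth, and Nt5e was called only by fits without the filter (edgeR with no filter and DESeq2).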

Other observations

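Among 8381 genes compared over the 8 libraries, those whose pattern was most like that of Adora2a were Saa3, an acute phase protein (root mean square difference 0.417 on the log2 scale), Phlda1 (0.490) and Siglece, an inhibitory sialic acid receptor (0.490). Saa3 was at 1545, 239, 649 and 280.1 CPM in vehicle replicates 1 to 4 and at 32510.1 to 37012 CPM in LPS, so that like Adora2a it was highest in vehicle replicate 1. The genes most like Entpd1 were Dglucy (0.2196), Trp53inp1 (0.376) and AU020206 (0.400). Dglucy was at 26.8 to 38.9 CPM in vehicle, at 2.09, 3.05 and 3.41 CPM in LPS replicates 1, 2 and 4 and at 8.72 CPM in LPS replicate 3. Trp53inp1, a stress response gene, was at 64.7 to 78.7 CPM in vehicle, at 5.98, 11.3 and 11.7 CPM in LPS replicates 1, 2 and 4 and at 22.8 CPM in LPS replicate 3. LPS replicate 3 was the highest LPS library for each of these as well as for Entpd1 (AU020206: 24.0 CPM against 7.96 to 13.02 CPM). All these genes were picked for their likeness over the same 8 libraries. A highest library shared with Entpd1 or Adora2a is therefore built into the choice and is no separate result. These are descriptions over 8 libraries that share a treatment difference.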
